A study of Mus musculus with 15 samples.

Results

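The genes described here are 10 regulators of the cell cycle: the E2F transcription factors E2f1, E2f2, E2f3, E2f7 and E2f8, the retinoblastoma (pocket) proteins Rb1, Rbl1 and Rbl2, and the MYB family members Mybl1 and Mybl2. They were chosen by name from the 32372 genes of the count matrix, and all 10 were measured. Microglia were enriched with CD45 beads from cortex and hippocampus and profiled by single-cell RNA sequencing in 15 male C57BL/6J mice that were 3.5 months old. All mice were hTfR knock-in, meaning that the mouse transferrin receptor carries a human part, because the antibody transport vehicle (ATV) binds only the human receptor. A single injection of 10 mg/kg (1 dose) was given of ATV:4D9, an antibody against the microglial receptor TREM2 on an Fc that binds the transferrin receptor, or of ATV:RSV, the control antibody on the same vehicle. The 5 groups of 3 mice were ATV:RSV sampled at day 1, and ATV:4D9 sampled after 1, 7, 14 or 28 days, and every one of the 3 batches held 1 mouse per group. Days 7, 14 and 28 had no control of the same day, so time since the dose and antibody cannot be told apart there beyond the day 1 control. All comparisons with ATV:RSV share the same 3 control mice.

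Cells divide when the E2F factors are released from the pocket proteins. In a resting cell, RB1 and its relatives p107 (Rbl1) and p130 (Rbl2) hold E2F factors and keep their target genes off, and cyclin-dependent kinases undo this by phosphorylating the pocket proteins. E2F1, E2F2 and E2F3 then activate genes for DNA replication, while E2F7 and E2F8 bind the same sites without a pocket protein and repress them later in the cycle. B-MYB (Mybl2) joins the MuvB complex and, with FOXM1, turns on genes of G2 and mitosis, and A-MYB (Mybl1) is a close relative best known from meiosis in the testis. In the healthy adult brain, microglia divide slowly.

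The promoters of some of the 10 genes hold the letters of the elements through which this network is wired. A stretch from 1 window of each gene with a match is shown because it lets the 2 kinds of element be seen at the genes whose values follow: E2F letters (TTTCCCGC, TTTGGCGC, TTTCGCGC or TTTGCCGC) and the letters TTTGAA of a cell cycle homology region (CHR), which MuvB complexes bind. Sequences are from RefSeq, build GRCm38.p6, written 5′ to 3′ on the strand of the gene, and capitals mark the match on either strand.
E2f3, chr13:29986064-29986123, minus strand: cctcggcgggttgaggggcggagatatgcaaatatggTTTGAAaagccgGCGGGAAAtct
E2f7, chr10:110745214-110745273, plus strand: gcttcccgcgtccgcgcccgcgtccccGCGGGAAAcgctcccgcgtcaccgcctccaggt
Rbl1, chr2:157204535-157204594, minus strand: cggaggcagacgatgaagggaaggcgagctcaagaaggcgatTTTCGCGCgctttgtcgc
E2f2, chr4:136172294-136172323, plus strand: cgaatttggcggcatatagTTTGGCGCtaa
E2f8, chr7:48881597-48881656, minus strand: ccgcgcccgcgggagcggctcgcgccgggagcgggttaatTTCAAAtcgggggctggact
Rbl2, chr8:91069829-91069888, plus strand: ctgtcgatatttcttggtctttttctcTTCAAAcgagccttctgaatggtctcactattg
The table of promoter windows (250 bases before each start and 50 from it) matched 8 of the 10 genes in 10 windows, and Rb1 and Mybl1 had no entry. E2F letters stood in windows of 4 of the 8 genes, E2f2, E2f3, E2f7 and Rbl1, against 704 of 27025 genes (2.6%) in the whole table. CHR letters stood in windows of 4 genes, E2f3, E2f8, Rbl2 and a further start of E2f2, against 5466 genes (20.2%). In E2f3 both lay next to each other, the CHR letters at bases -23 to -18 and the E2F letters at -11 to -4 counted from the start. In Rbl1 the E2F letters lay at -18 to -11, in E2f7 at -198 to -191, and in E2f2 at 40 to 47 after the RefSeq start. That start of E2f2 lies before the GENCODE start of the gene (chr4:136172394), so the letters lie upstream of the latter. No window of E2f1 or Mybl2 held exactly these letters of either kind. A match is a description of the letters only, not of binding, and a link between matches and the changes below was not tested.

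The matrix held counts of unique molecular identifiers (UMIs, each tagging 1 captured RNA molecule) in 102043 cells, with 5667 to 7596 cells and 32341960 to 70307384 UMIs per mouse. Median UMIs per cell were 8201.5 to 8995.5 at day 1 of ATV:4D9, 4975 to 5750 in ATV:RSV and 4694 to 6117 at the later days, so the day 1 cells stood apart in depth. The 8 microglial markers summed to 20320 to 22000 CPM (counts scaled to a common library total) in ATV:RSV and 14630 to 16260 at day 1, so these markers were present in every mouse. Markers of monocytes (4 genes) summed to 4.39 to 11.2 CPM in ATV:RSV and 13.3 to 17.6 at day 1, where Plac8 made up 11.8 to 15 and the defining marker Ccr2 was lower, at 1.28 to 2.01 against 3.28 to 8.40. Markers of T and NK cells summed to 0.0757 to 0.409 CPM in ATV:RSV and 0.327 to 0.900 at day 1, with Cd3e at 0 in all ATV:RSV mice. Markers of red blood cells summed to 9.67 to 387 CPM in ATV:RSV and 1.93 to 33.1 at day 1, and those of neutrophils reached 116 CPM in 1 day 7 mouse. Markers of astrocytes summed to 216 to 265 CPM in ATV:RSV and 112 to 118 at day 1. Slc1a3 made up 212 to 260 and 107 to 114 of these. Mbp, an oligodendrocyte marker, was at 16.95 to 26.47 CPM in ATV:RSV and 9.336 to 11.16 at day 1. The median percent of mitochondrial UMIs per cell was 3.11 to 3.38 in ATV:RSV and 3.96 to 4.50 at day 1. The part of these values in the results was not tested. Cells with at least 3 markers of another cell type were 0.308% to 0.413% of ATV:RSV cells and 0.815% to 1.01% of day 1 cells, and without them all 10 genes were called at day 1 as before. All 10 genes were also called without the 5% of cells with the most UMIs in each mouse. Both counts include E2f7 and E2f8, which passed the filter on low counts only through the day 1 mice and had to differ. They have to be read beside the calls over all genes. With all cells, 4942 of 14260 genes were called higher and 4930 lower. Without the cells with other markers these were 4942 and 4918, and without the 5% with most UMIs 4841 and 4835. In all, 1283 barcodes occurred in more than 1 library.

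One day after ATV:4D9, 8 of the 10 genes rose and 2 fell against ATV:RSV. The activators E2f1, E2f2 and E2f3, the repressors E2f7 and E2f8, the pocket protein Rbl1 and both MYB genes were higher, from 1.34-fold for E2f3 to 98.5-fold for E2f1. The other 2 pocket proteins, Rb1 and Rbl2, were lower. In every one of the 10 genes the 3 day 1 mice lay entirely to one side of the 3 ATV:RSV mice. These counts have to be read against a day on which much of the transcriptome moved: of 14260 genes tested with limma-voom at an adjusted p under 0.05, 34.7% were called higher and 34.6% lower, and in 71.5% the groups did not overlap. The median log2 fold change was 2.97 over the 10 genes and -0.046 over all genes tested. E2f7 and E2f8 passed the filter on low counts only through the day 1 mice, so they had to differ there. Values are CPM of UMIs summed per mouse and scaled by the trimmed mean of M values (TMM). In such sums, fewer cells that express a gene and less RNA per cell cannot be told apart, and the class and share values given further on bear on that.

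**Figure D1:**
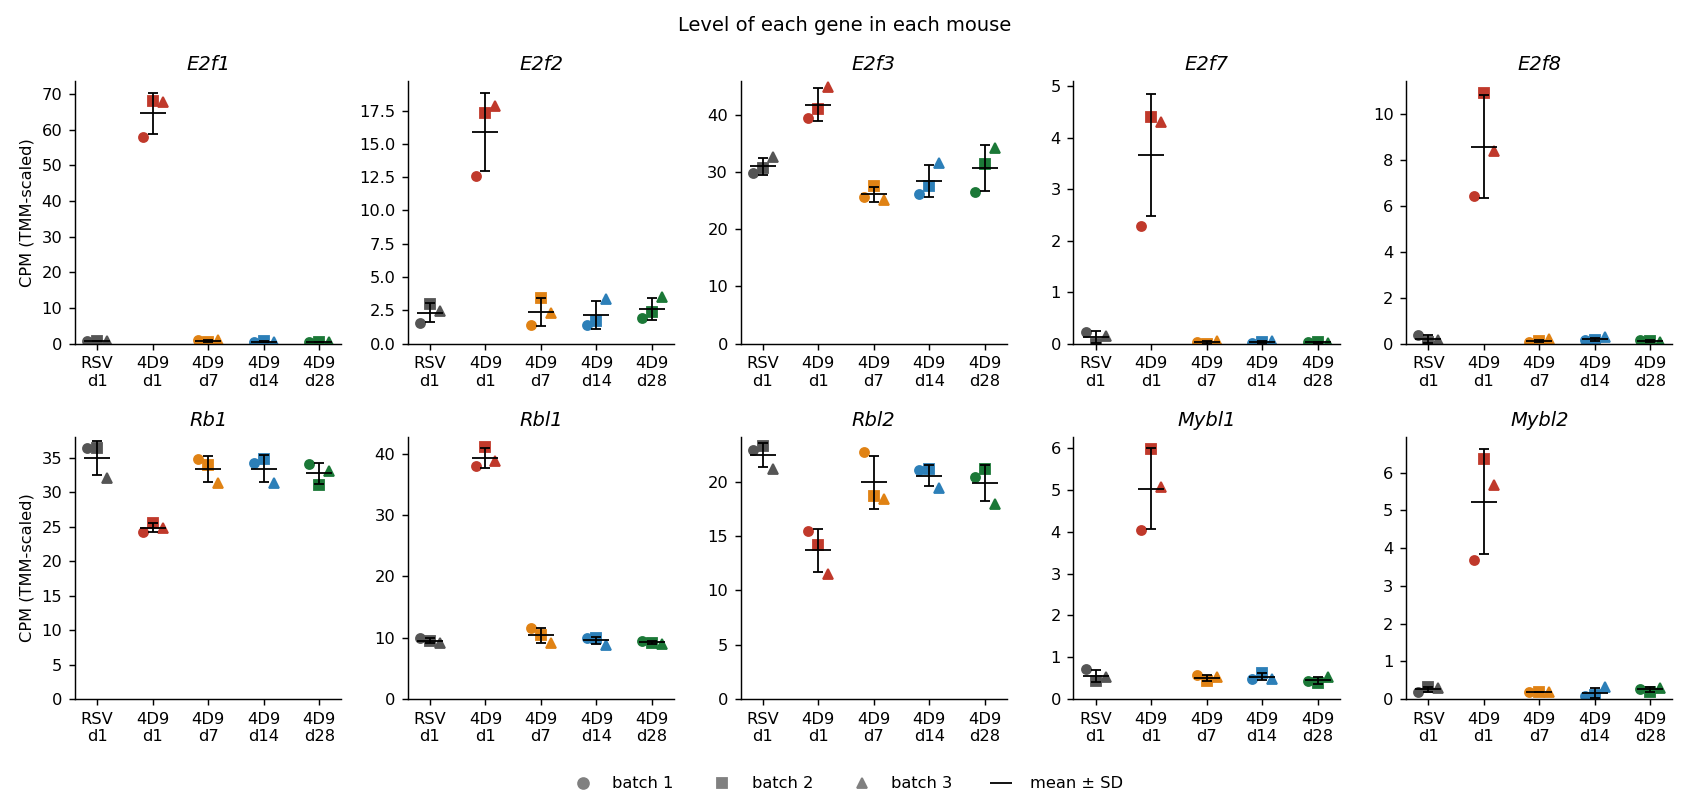
CPM (TMM-scaled, linear axis from 0) of each of the 10 genes in each of the 15 mice, by group, with points for mice and bars for the mean ± SD of 3 mice. The day 1 mice of ATV:4D9 stand above all other mice in 8 panels, as in E2f1 with 58.1 to 67.9 CPM, and below them in Rb1 and Rbl2.

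E2f1, the activator that gave the family its name, was at 0.654, 0.675 and 0.596 CPM in the 3 ATV:RSV mice, from 25 to 32 UMIs each. At day 1 of ATV:4D9 it was at 58.1, 67.9 and 67.6 CPM, from 3163 to 4160 UMIs. The gap between the groups was far wider than the spread within them, at 0.642 ± 0.0409 (SD, n = 3) against 64.5 ± 5.62 CPM. The log2 fold change was 6.62 (SE 0.216, adjusted p = 6.92e-13 by limma-voom), and E2f1 ranked 13 of 14260 genes from the highest. Within the 3 batches the ratio was 88.8, 101 and 113. E2f1 lies at chr2:154559407-154569892 on the minus strand (mm10), as a protein-coding gene like the other 9.

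E2f2, a close relative of E2f1 (chr4:136172394-136196057, plus strand), was at 1.55, 2.94 and 2.48 CPM in ATV:RSV and 12.6, 17.3 and 17.9 at day 1. All day 1 mice stood above all control mice, although the control mice themselves varied more than for E2f1. The log2 fold change was 2.81 (SE 0.303, adjusted p = 5.42e-07 by limma-voom). E2f3 (chr13:29906575-29986063, minus strand), the activator whose promoter carried both kinds of element, was already well detected in the control mice, with 29.8, 30.8 and 32.7 CPM. At day 1 it was at 39.5, 41.2 and 45.0 CPM, a shift that was small beside those of E2f1 and E2f2 but larger than the spread between mice. Its log2 fold change was 0.43 (SE 0.0871, adjusted p = 0.000406 by limma-voom), and it missed the threshold when counts were scaled by the library size alone (0.19, adjusted p = 0.065).

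The atypical repressors E2f7 and E2f8 were close to absent in the resting cells. E2f7 (chr10:110745439-110787384, plus strand) had 11, 0 and 6 UMIs in the ATV:RSV mice and 146, 270 and 201 at day 1, or 0.225, 0 and 0.143 against 2.29, 4.41 and 4.30 CPM. The ATV:RSV mouse without a UMI had 6794 cells, which allows a share of up to 0.0442% of cells with a UMI. The fitted log2 fold change of E2f7 was 5.45 by limma-voom. It is given as a value only, because of the filter, and it rested on the few control UMIs: it was 6.32 without replicate 1 of ATV:RSV, 4.16 without replicate 2 and 4.82 in edgeR. E2f8 (chr7:48866429-48881596, minus strand) had 19, 3 and 6 UMIs in ATV:RSV and 408, 667 and 393 at day 1, or 0.388, 0.0724 and 0.143 against 6.41, 10.9 and 8.40 CPM. Its log2 fold change, also a value only, was 5.55, and 6.19 without replicate 1 of ATV:RSV. Replicate 1 of ATV:RSV held most of the control UMIs of both genes. That mouse also had 28 cells with at least 3 UMIs of a G2/M gene list (0.437% of cells thinned to equal depth), against 6 and 9 in the other two. In thinned counts its G2/M-list cells held 2 of 3 E2f7 UMIs and 2 of 5 E2f8 UMIs. These are few UMIs, and the part of such cells in the control counts was not tested.

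The 3 pocket proteins did not move together. Rb1 (chr14:73183673-73325822, minus strand), the retinoblastoma protein itself, was at 36.3, 36.4 and 32.1 CPM in ATV:RSV and 24.2, 25.5 and 24.9 at day 1, with no overlap between the groups. Its log2 fold change was -0.49 (SE 0.0642, adjusted p = 4.92e-06 by limma-voom), that is 0.712 of the control level. Rb1 was not called when counts were scaled to the number of cells (-0.13, limma-voom adjusted p = 0.236). Rbl2 (chr8:91070057-91123844, plus strand), which encodes p130, the pocket protein typical of resting cells, was at 22.9, 23.3 and 21.2 CPM and then at 15.4, 14.2 and 11.5. It fell by 0.71 on the log2 scale (SE 0.101, adjusted p = 1.30e-05 by limma-voom), to 0.613 of the control level. Rbl1 (chr2:157145893-157204534, minus strand) encodes p107, a pocket protein that is itself an E2F target and carried the E2F letters shown above. It went the other way, from 9.95, 9.41 and 9.21 CPM to 38.0, 41.2 and 38.9. This was a log2 fold change of 2.04 (SE 0.0731, adjusted p = 1.77e-12 by limma-voom), with ratios of 3.82, 4.38 and 4.22 within the 3 batches. The 3′ ends of Rb1 and Rbl2, where most reads of this kit fall, overlap other annotated genes: Gm17233 on the strand of Rb1 over 3649 bases, the protein-coding Rcbtb2 on its opposite strand over 24171 bases, and Aktip on the opposite strand of Rbl2 over 12061 bases. Whether strand was used in counting is not stated, so reads of these pairs may be shared, and the same holds for E2f7 with 1700020G17Rik over 2800 bases.

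Both MYB genes rose from low levels. Mybl2 (chr2:163054687-163084688, plus strand), the MYB protein of the MuvB complex, had 9, 13 and 12 UMIs in ATV:RSV and 234, 389 and 265 at day 1. Its level went from 0.184, 0.314 and 0.286 CPM to 3.68, 6.35 and 5.67, with ratios of 19.8 to 20.3 in the 3 batches. The log2 fold change was 4.26 (SE 0.428, adjusted p = 2.43e-07 by limma-voom). Mybl1 (chr1:9667415-9700209, minus strand) was at 0.715, 0.434 and 0.525 CPM and then at 4.05, 5.98 and 5.07, a log2 fold change of 3.14 (SE 0.247, adjusted p = 1.44e-08 by limma-voom). Its ratio within batches was less even, at 5.66, 13.8 and 9.66.

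The day 1 rise did not last to day 7. All 10 genes differed between ATV:4D9 day 7 and ATV:4D9 day 1, 8 lower and Rb1 and Rbl2 higher, where 33.9% of all genes tested were lower and 33% higher. As at day 1, E2f7 and E2f8 had to differ here because of the filter. With scaling to the number of cells the values of Rb1 (-0.042) and Rbl2 (0.074) were not called. E2f1 was back at 0.962, 0.528 and 0.872 CPM at day 7, against 58.1 to 67.9 at day 1. E2f7 had 1, 0 and 3 UMIs at day 7, where the mouse without a UMI had 5667 cells, which allows up to 0.0529% of cells. Rb1 stood at 34.8, 33.9 and 31.3 CPM and Rbl2 at 22.8, 18.7 and 18.4, in or near the range of the control mice. In 1 test over the 5 groups (limma's moderated F test) 8 of the genes differed, where 66.5% of all genes did, while the filter had fixed the calls of E2f7 and E2f8. The highest adjusted p was 0.000128 for Rbl2.

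Against ATV:RSV, 0 of the 10 genes were called by limma-voom at days 7, 14 or 28. Over all genes tested the calls were 2.99% higher and 0.996% lower at day 7, 0.386% and 0.014% at day 14, and 0% and 0% at day 28. For day 28 the unadjusted p was under 0.05 in 571 genes, and calls numbered 14 in DESeq2 and 0 in edgeR. The gene nearest to a call was E2f3 at day 7, with 25.7, 27.6 and 25.1 CPM against 29.8, 30.8 and 32.7 in ATV:RSV. These groups did not overlap, which was so for 21.2% of genes at day 7, 10.4% at day 14 and 8.93% at day 28. The log2 fold change of E2f3 was -0.25 (SE 0.0945, unadjusted p = 0.0168 and adjusted p = 0.171 in limma-voom), and E2f3 was the only member with an unadjusted p under 0.05 at that day. It was called lower with the batch as a replicate block (-0.27, adjusted p = 0.0303) and with scaling by library size alone (-0.35, adjusted p = 0.0365). Library size scaling turned the split over all genes at day 7, from 426 higher and 142 lower to 317 higher and 882 lower, and the block gave 677 and 337. E2f1 at day 28, with 0.505, 0.336 and 0.530 CPM, also lay below all control mice, at a log2 fold change of -0.51 (SE 0.314, adjusted p = 1.00 by limma-voom). A p above the threshold does not show that levels were equal.

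**Figure D2:**
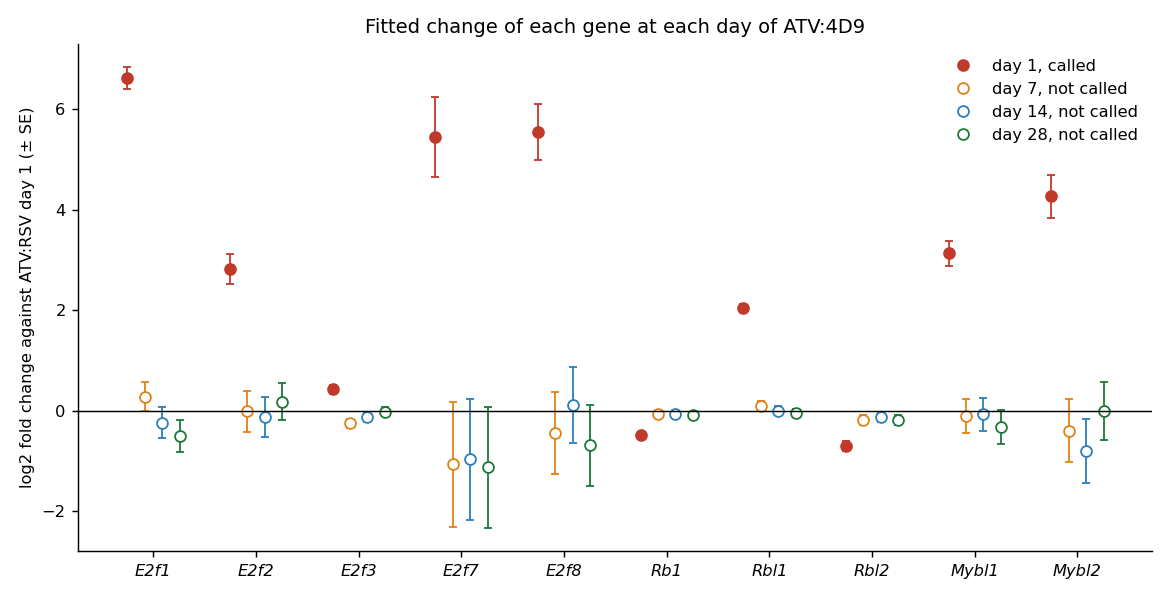
Log2 fold change of each gene against ATV:RSV at days 1, 7, 14 and 28 of ATV:4D9 (limma-voom, n = 3 mice per group, bars are the SE), with filled points for genes called at an adjusted p under 0.05. All 10 points are filled at day 1, from -0.71 for Rbl2 to 6.62 for E2f1, and none are filled at the later days. The day 1 calls of E2f7 and E2f8 were fixed by the filter on low counts.

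Because day 1 cells held more UMIs, the size of a fold depends on what the counts are scaled to. Over all genes tested, the median log2 fold change at day 1 was -0.046 with TMM, -0.29 with the library size alone and 0.32 when counts were scaled to the number of cells, and the share of calls that were higher was 50.1%, 34.7% and 78.8%. Per 1000 cells, E2f1 rose from 4.56, 4.12 and 3.85 UMIs in the ATV:RSV mice to 519, 567 and 527 at day 1. The 7 other genes that rose kept their direction under all 3 scalings, although the smallest rise, of E2f3, ranged from 0.19 to 0.79 on the log2 scale. Rb1 had 253, 222 and 207 UMIs per 1000 cells in ATV:RSV and 216, 213 and 194 at day 1, so the groups overlapped. With scaling to cells its log2 fold change was -0.13 and was not called (limma-voom adjusted p = 0.236), so Rb1 was called lower as a share of all UMIs but not as UMIs per cell. Rbl2 had 160, 142 and 137 UMIs per 1000 cells and then 138, 118 and 90.0, so these groups overlapped as well, and it was called lower under this scaling (-0.35).

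**Figure D3:**
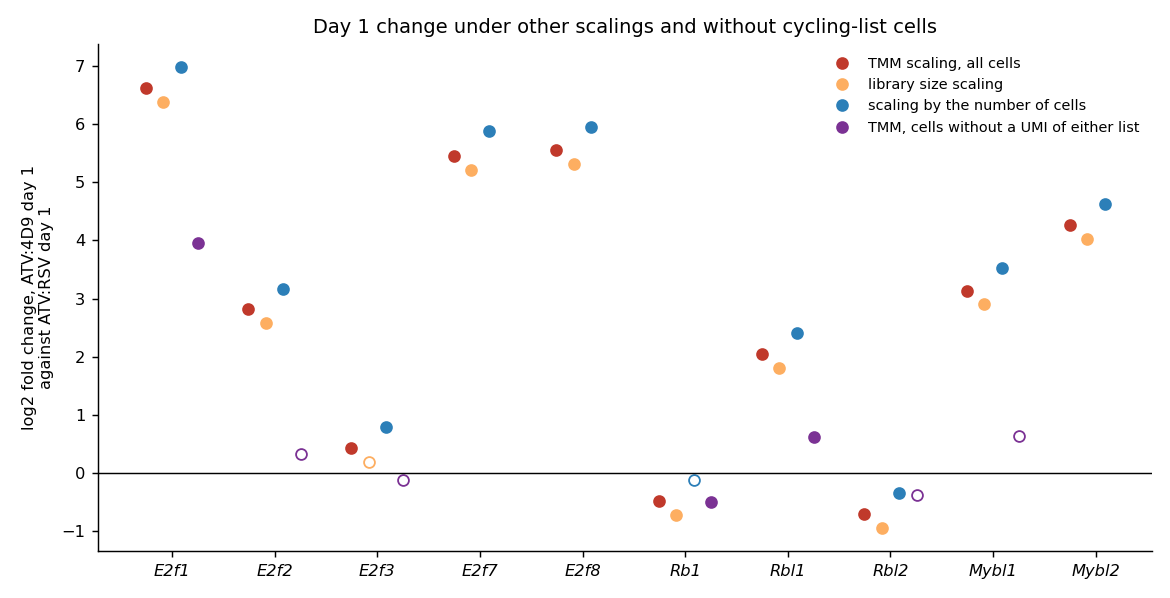
Log2 fold change at day 1 against ATV:RSV for each gene (n = 3 mice per group) with TMM, library size and cell number scaling, and with TMM after leaving out cells with a UMI of the S or G2/M gene lists, with open points for values not called. E2f1 stays high at 6.98 with scaling to cells and 3.95 without the list-positive cells, while E2f7, E2f8 and Mybl2 have no point in the last setting because they were not tested there.

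To set shares of cells side by side at equal depth, 3385 UMIs were drawn from each cell and the 10204 shallower cells were dropped. A UMI of E2f1 was found in 0.234%, 0.143% and 0.245% of thinned cells in ATV:RSV and in 15.2%, 17.6% and 16.5% at day 1, and without thinning in 0.355% to 0.456% against 33.0% to 36.5%. Free RNA in the droplets was not measured, so these are shares of cells with a UMI and not of cells that express the gene. Mybl2 went from 0.0624%, 0.0716% and 0.0874% of thinned cells to 0.921%, 1.70% and 1.66%, and E2f8 from 0.0780%, 0.0179% and 0.0350% to 1.86%, 2.80% and 2.02%. Rb1 was found in 12.4%, 12.2% and 10.6% of thinned cells in ATV:RSV and in 7.36%, 7.35% and 7.40% at day 1. Without thinning the Rb1 shares overlapped, at 17.94% to 21.03% in ATV:RSV and 16.82% to 18.57% at day 1. The share of E2f3 in thinned cells moved little, from 10.8%, 10.2% and 11% to 11.2%, 12% and 12.3%. Without thinning the E2f3 share rose, from 15.98% to 18.08% in ATV:RSV to 26.87% to 27.26% at day 1. Day 1 cells held more UMIs, so the unthinned shares also carry that difference in depth. With 3 mice against 3 an exact permutation test cannot go below p = 0.1, so the shares carry no test. No other cell type was present in numbers that would give a background share.

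Cells were next divided by 2 short gene lists that hold none of the 10 genes. Thinned cells with at least 3 UMIs of a list of 21 G2/M genes were taken as G2/M-list cells, other cells with at least 3 UMIs of a list of 20 S phase genes as S-list cells, and the remainder as other cells. These are ranges of a count, not cell types: at day 1, 755 to 996 of the other cells per mouse were 1 UMI below the limit and 653 to 852 S-list cells were at it. At day 1, 47.7%, 51.9% and 49.2% of cells were S-list cells and 5.85%, 10.1% and 9.47% were G2/M-list cells, against 0.466% to 0.577% and 0.107% to 0.437% in ATV:RSV. Within day 1, 8 genes were higher in S-list than in other cells and Rb1 and Rbl2 were not called, where limma-voom with the mouse as a block called 14.5% of 11542 genes higher and 12.4% lower. In G2/M-list against other cells 9 genes were higher and Rbl2 was not called (23.8% of all genes higher, 21.6% lower), and the same counts held against S-list cells (17.6% and 13.9%). The filter on low counts bears on these counts: E2f7, E2f8, Mybl1 and Mybl2 did not reach its level of 1.11 CPM in the other cells of 3 mice, and E2f7 passed it only through the G2/M-list cells. Their differences from other cells, and that of E2f7 between G2/M-list and S-list cells, were therefore fixed by the filter and are given as values.

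**Figure D4:**
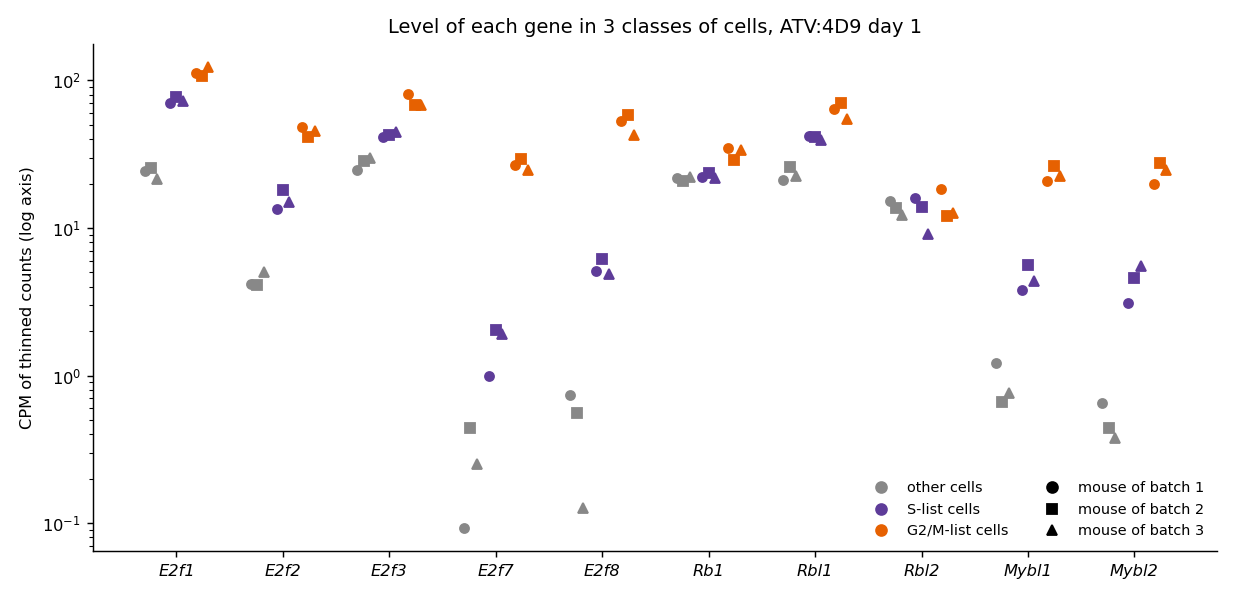
CPM of each gene at day 1 of ATV:4D9 in other, S-list and G2/M-list cells, each point 1 of the 3 mice (thinned counts). E2f7 and E2f8 are concentrated in the G2/M-list cells, with 24.8 to 29.2 and 42.5 to 58.5 CPM, and E2f1 already stands at 21.4 to 25.7 CPM in the other cells. Rbl2 had no called difference between the 3 classes.

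E2f1 rose in steps across these classes, from 24.3, 25.7 and 21.4 CPM in other cells to 70.0, 76.9 and 72.9 in S-list and 112, 107 and 123 in G2/M-list cells. The other cells of the ATV:RSV mice held 0.559, 0.426 and 0.572 CPM, so E2f1 was also far above control in day 1 cells that had few UMIs of either list. The log2 fold change of E2f1 was 1.58 from other to S-list cells and 0.55 from S-list to G2/M-list cells in limma-voom. The second of these was lost at a class limit of 5 UMIs (0.19, adjusted p = 0.0852). E2f2 and E2f3 followed the same order, E2f2 with 4.18, 4.11 and 5.06 CPM in other and 48.0, 41.4 and 45.3 in G2/M-list cells, and E2f3 with 24.8, 28.5 and 29.6 and then 80.5, 67.7 and 68.5. The other cells of the ATV:RSV mice held 1.30, 2.87 and 2.18 CPM of E2f2, below those of day 1, but 33.9, 31.9 and 35.9 of E2f3, above those of day 1.

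E2f7 and E2f8, the repressors, had their UMIs mostly in G2/M-list cells. E2f7 was at 0.0930, 0.445 and 0.253 CPM in other cells, 1.00, 2.04 and 1.91 in S-list cells and 26.6, 29.2 and 24.8 in G2/M-list cells. The G2/M-list cells, at most 10.1% of the cells of a mouse, held 75.0%, 70.7% and 69.2% of the E2f7 UMIs and 52.9%, 63.3% and 62.1% of those of E2f8, but 12.8%, 17.9% and 20.7% of those of E2f1. E2f8 reached 53.2, 58.5 and 42.5 CPM in G2/M-list cells. From S-list to G2/M-list cells the log2 fold changes were 3.88 for E2f7 and 3.20 for E2f8, against 2.42 for Mybl2 and 2.27 for Mybl1 (limma-voom). Mybl2 was at 19.9, 27.6 and 24.8 CPM and Mybl1 at 20.7, 26.3 and 22.6 in G2/M-list cells, with at most 0.651 and 1.21 CPM in other cells.

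The 3 pocket proteins also differed from each other by class. Rbl1 was at 21, 26.0 and 22.4 CPM in other, 41.8, 41.1 and 39.7 in S-list and 63.5, 70.6 and 54.7 in G2/M-list cells. Rb1 was at 21.9, 20.7 and 22.1 CPM in other and 22.2, 23.7 and 21.8 in S-list cells, a log2 fold change of 0.032 that was not called (limma-voom adjusted p = 0.822). In G2/M-list cells it was at 34.7, 28.8 and 33.7 CPM and was called against other cells (0.46, adjusted p = 0.000935 in limma-voom) and against S-list cells (0.43, adjusted p = 0.00299). The last call was lost without replicate 3 of day 1 (0.38, adjusted p = 0.0586). Rbl2 was at 15.2, 13.7 and 12.3 CPM in other, 16.0, 13.8 and 9.14 in S-list and 18.5, 12.1 and 12.7 in G2/M-list cells. None of its 3 differences was called, at log2 fold changes of -0.091, -0.040 and 0.052 with limma-voom adjusted p-values of 0.567, 0.873 and 0.855.

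Leaving out every cell with a UMI of either list removed most of the day 1 cells, since 91.6% to 93.9% of them had one against 38.3% to 42.1% in ATV:RSV. In the cells that were left, 7 of the genes could be tested and E2f7, E2f8 and Mybl2 did not pass the filter on low counts. Of the 12869 genes tested in these cells, limma-voom called 17.1% higher and 10.6% lower. E2f1 was still higher at day 1 (log2 fold change 3.95), as was Rbl1 (0.62, limma-voom adjusted p = 0.0282), and Rb1 was lower (-0.50). E2f2 at 0.32, E2f3 at -0.12, Rbl2 at -0.38 and Mybl1 at 0.64 were not called. Few day 1 cells were left, since 6518 of 7118, 6897 of 7343 and 5577 of 5998 were removed. A value not called there does not show that a gene was unchanged.

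The 3 deposited clusters were made from the same counts, so levels in them are a description without a test. Cluster 2 held 6212, 6597 and 5607 cells of the day 1 mice and 165, 76 and 98 of the ATV:RSV mice. Since cluster 2 is thus mostly day 1 cells, levels are given within a group. Summed over the 3 mice, E2f1 was at 0.487 CPM in cluster 0 and 0.397 in cluster 1 in ATV:RSV, and at 5.70 and 7.96 at day 1, from 30 and 35 UMIs. In cluster 2 it was at 55.9, 64.1 and 61.1 CPM at day 1 and at 9.10, 8.77 and 10.1 in ATV:RSV, from 6 to 14 UMIs. Inside this cluster the day 1 mice thus stood above the ATV:RSV mice for E2f1. For E2f7 they did not, with 2.20, 4.17 and 3.89 CPM in cluster 2 at day 1 and 5.85, 0 and 5.62 in ATV:RSV, from 9, 0 and 5 UMIs. At day 1 Rb1 was at 33.2, 40.4 and 29.0 CPM in cluster 1, at 23.4, 20.5 and 19.1 in cluster 0 and at 21.4, 22.8 and 21.8 in cluster 2. Summed over the 3 mice, Rb1 at day 1 was at 21.5, 34.8 and 22.0 CPM in clusters 0, 1 and 2. In ATV:RSV it was at 34.8, 42.5 and 30.9 CPM, so cluster 1 was highest in both groups and each cluster was lower at day 1.

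In single day 1 cells, UMIs of several of these genes were found in the same cells. Of thinned cells with a Mybl2 UMI, 41.3%, 36.1% and 28.7% had one of E2f1, against 15%, 17.3% and 16.3% of cells without. Of cells with an E2f7 UMI, 23.4%, 17.0% and 16.9% had one of E2f8, against 1.71%, 2.61% and 1.84%. Rb1 was found in 7.31%, 8.67% and 7.91% of cells with E2f1 and in 7.37%, 7.07% and 7.29% of those without. These shares are given as a description.

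The partners, regulators and targets of the 10 genes were followed in 6 lists at day 1, to be read beside the 34.7% of all genes called higher and 34.6% called lower that day. Of 8 kinases and cyclins that phosphorylate pocket proteins, 8 rose, with a median log2 fold change of 1.40. The largest were those of cyclin E, the partner of CDK2 at the entry to S phase: Ccne2 went from 0.201 to 20.3 CPM (6.77, SE 0.528, limma-voom adjusted p = 1.26e-08) and Ccne1 from 0.309 to 19.2. Of 7 CDK inhibitors 3 rose, 3 fell and 1 was not called (median 0.04). Cdkn2a, the locus of the CDK inhibitor p16 and of p19ARF, went from 0.781 to 6.84 CPM (3.09, SE 0.314). Counts per gene do not tell these products apart, so a rise of p16 itself was not shown. Cdkn1c, the inhibitor p57, fell by 2.30 (SE 0.110) from 27.9 to 5.68 CPM.

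Among the 5 other members of the E2F and DP family, 3 rose, 1 fell and 1 was not called (median 0.36). Tfdp1, which encodes the partner DP1 that activator E2Fs need to bind DNA, went from 9.89 to 52.8 CPM (2.42 on the log2 scale, SE 0.0734, adjusted p = 3.52e-13 by limma-voom). E2f5, which works with p130 in resting cells, was lower by a small margin (-0.28, SE 0.0987, limma-voom adjusted p = 0.0210), a call that was lost with scaling to cells, in thinned cells, without the filter, and without replicate 1 of ATV:RSV or replicate 1 or 3 of day 1. Of 7 listed genes, those of the MuvB core with Foxm1 and Myb, 6 rose and 1 was not called (median 0.76). The largest rises were of Foxm1, from 0.589 to 4.49 CPM (2.93), and Myb, from 0.529 to 3.50 CPM (2.74). Scaling by library size turned 1 of the 7 into a lower call.

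Both target lists were higher at day 1. All 26 of the classical E2F target genes were higher, with a median log2 fold change of 4.24, led by Cdc6, a loader of the replicative helicase, from 0.115 to 13.5 CPM (7.49), and Ccne2. All 15 of the B-MYB and FOXM1 targets of G2 and mitosis were higher, with a median of 2.91, led by Top2a, from 3.02 to 77.2 CPM (4.74), and the spindle checkpoint kinase Bub1, from 0.324 to 8.49 CPM (4.73). Of these genes, Cdc6, Orc1, Bub1 and Cdc25c passed the filter on low counts only through the day 1 mice and had to differ. In the cells without a UMI of the S or G2/M lists, 11 of the E2F targets could be tested and 6 were higher. Of the kinases and cyclins 4 of 7 were higher, and of the list of MuvB core genes, Foxm1 and Myb 1 of 7. Of the 15 B-MYB and FOXM1 targets 0 could be tested. Of the 5 other E2F and DP genes 2 were higher and 1 lower there, and of the 7 CDK inhibitors 1 was higher and 3 lower. The shares of all genes in these cells were 17.1% higher and 10.6% lower, as given above. In that setting 11 of the 26 and 14 of the 15 targets have no UMI by construction, since they are genes of those lists. The target lists thus overlap with those used to define the cell classes, and several of their genes had been seen to move in these data before the lists were written, so they are not independent evidence of direction.

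**Figure D5:**
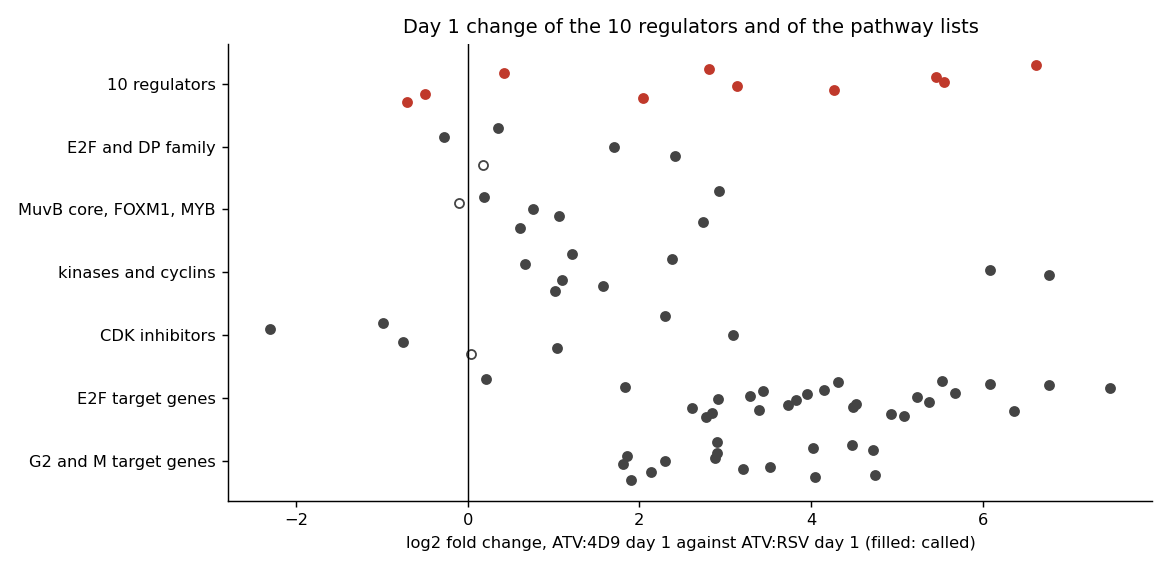
Log2 fold change at day 1 against ATV:RSV of the 10 genes and of 6 lists of related genes (limma-voom, n = 3 mice per group), each point 1 gene, with filled points for genes called at an adjusted p under 0.05. The E2F targets (median 4.24) and the B-MYB and FOXM1 targets (median 2.91) lie wholly above 0, while the CDK inhibitors lie on both sides of it.

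Day 7 was next set against day 1 for the lists. There, 25 of 26 E2F targets, 15 of 15 B-MYB and FOXM1 targets and 8 of 8 kinases and cyclins were lower at day 7 (limma-voom), beside 33.9% of all genes lower and 33% higher, and Apaf1 (-0.04) was the E2F target that was not called. Cdc6, Orc1, Bub1 and Cdc25c are counted here although the filter on low counts fixed their difference, as at day 1. Of the 7 genes in the list of MuvB core genes, Foxm1 and Myb 5 were lower. Of the 5 other E2F and DP genes 3 were lower and 1 higher, and of 7 CDK inhibitors 3 were higher and 2 lower. Against ATV:RSV, where 2.99% of all genes were called higher and 0.996% lower at day 7, a few genes of the lists were called, and these are named after their values were seen. Of the CDK inhibitors, Cdkn1a at 0.78, Cdkn1c at 0.43 and Cdkn2c at 0.99 rose, with limma-voom adjusted p-values of 0.0202, 0.00571 and 0.000238. Cdkn1a encodes p21, the inhibitor induced by p53, and Cdkn2c encodes p18, an inhibitor of CDK4 and CDK6. Of the kinases and cyclins Cdk2 rose (0.32) and the D cyclin Ccnd1 fell by 0.82, and of the E2F targets the phosphatase gene Cdc25a rose (0.35). Most of these calls were not firm. That of Cdk2 was lost with library size scaling, with scaling to cells and without any 1 of the 6 mice (adjusted p of 0.059 to 0.169 by limma-voom). It was also lost without the filter, in thinned cells, without cells with a UMI of the S or G2/M lists, and without the 5% of cells with most UMIs. Cdc25a was lost with both scalings, without the filter, with only the 2 groups fitted, and without replicate 3 of ATV:RSV or replicate 2 or 3 of day 7. Cdkn1a was lost without replicate 2 or 3 of ATV:RSV or replicate 1 or 2 of day 7 (0.61 to 0.73), Cdkn1c with scaling to cells (0.33), and Ccnd1 without replicate 2 of ATV:RSV or replicate 3 of day 7. The call of Cdkn2c was kept in each of these. Of the B-MYB and FOXM1 targets limma-voom called 0 at day 7, while DESeq2 called 5 lower and edgeR and the replicate block 1 each. At days 14 and 28 limma-voom called 0 genes of the 6 lists.

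The genes whose level across the 15 mice was most like that of each regulator were listed as a description, by Pearson's r of log2 CPM over 14250 genes. Because the day 1 mice stand apart in most genes, r over all mice was high for many genes: 1898 genes had r above 0.95 with E2f1 and 6 with E2f3. For E2f1 the nearest were Dnajc9 (0.998), Rwdd1 (0.997) and Nedd8 (0.997), and over the 12 mice outside day 1 the same genes had r of 0.870, 0.747 and 0.794. For Mybl2 they were Tdp2, Zdhhc21 and Haus7 (0.985 to 0.989), and for Mybl1 Asf1b, Dkc1 and Racgap1 (0.993 to 0.994). The nearest to E2f7 were Cenpe, BC030867 and Ska3 (0.984 to 0.992), and to E2f8 Spc25 (0.991) and Aunip (0.990). For E2f2 they were Fam89a, Fastk and Mphosph6 (0.985 to 0.988) and for Rbl1 Gm26917, Tmpo and Atox1 (0.997 to 0.998). E2f3 was nearest to Meis3 (0.971), Ccnd1 (0.967) and Cap1 (0.964), which kept r of 0.898, 0.883 and 0.909 outside day 1. Rb1 was nearest to Txlng, Syk and Zswim6 (0.976 to 0.982) and Rbl2 to Gab1, Kdm3b and Mertk (0.971 to 0.977).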

How the data were processed

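Libraries were made with a 10x 3′ kit from 15 mice, and groups, days and batch numbers were taken from the labels. A further control animal in the labels was not analysed here. The authors mapped reads to mm10 with Cell Ranger (version 4.0.0 in the submitters' processing notes, a later version in the study's methods) and clustered cells in Seurat. The cell filters and the use of introns and strand are not given in the sources used here, and since versions differ in counting introns, the counts may or may not include them. The authors deposited raw UMI counts (genes by cells) and a cell table with each cell's mouse, cluster and percent of mitochondrial UMIs. Its UMIs per cell equalled the matrix sums in 102043 cells.

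Counts were summed per mouse (32341960 to 70307384 UMIs). The study used limma/voom on pseudobulk sums with the mouse as replicate, and a design for comparing groups by day is not given in the sources used here. Genes were kept by filterByExpr (minimum count 10, total 15), scaled by TMM (edgeR 4.0.16) and fitted with limma-voom (limma 3.58.1 in R 4.3.3) in 1 fit of 5 group means over 15 mice, with Benjamini-Hochberg adjustment over 14260 genes and calls at an adjusted p under 0.05. Alternatives used edgeR, DESeq2 1.42.0, other scalings, no filter, thinned or fewer cells and the batch as a block. Classes of day 1 cells were compared on sums per mouse and class with the mouse as a block, leaving out the genes of the lists. Scripts were tested on simulated counts. Upper limits beside a 0 rest on 3 counts and on counting error alone, and p-values of the comparisons by day measure the spread between mice. Those of the class comparisons measure the spread left once differences between mice are taken out by the block. No doublet caller was run: the 455 cells with 3 or more markers of another type, or the 5% with most UMIs, were left out instead.

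Per the labels, all 5 conditions were run in every batch, and the batch number therefore pairs mice across groups. Deviations of mice from their group means had a mean r of 0.0539 within batches (30 pairs, -0.225 to 0.259) and -0.0267 between them (60 pairs). No libraries were copies (lowest chi-square per degree of freedom 9.93 over 15 pairs). The 10 genes and the lists were chosen with earlier results of these data known. Named beside the 10 genes are the 2 leading called genes of each list at day 1 (highest and lowest if opposite in sign) and the 3 genes nearest to each regulator, of which 1 is not reported here. Positions are from GENCODE M21 (mm10) and promoters from RefSeq (GRCm38.p6).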

Additional observations from a re-analysis of the deposited data

Results flagged for a closer look

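The effect of ATV:4D9 differed between day 1 and day 7 in 8 of the 10 genes, all but E2f7 and E2f8, by a test of the difference itself (limma-voom, day 7 minus day 1, 3 mice each, called at an adjusted p under 0.05). Of all 14260 genes tested, 33.9% were lower and 33% higher in the same difference. On the log2 scale the difference was -6.34 for E2f1, -2.83 for E2f2, -0.68 for E2f3, -6.52 for E2f7, -6.00 for E2f8, -1.94 for Rbl1, -3.24 for Mybl1 and -4.66 for Mybl2. It was 0.42 for Rb1 and 0.52 for Rbl2. Both days are set against the same ATV:RSV mice, which cancel in this difference. Day 7 has no control of its own day, and the day 1 cells held more UMIs: with scaling to the number of cells Rb1 was at -0.042 and Rbl2 at 0.074, and neither was called. E2f7 and E2f8 passed the filter on low counts only through the day 1 mice, so their differences were fixed by that choice and are given as values. Without cells with a UMI of the S or G2/M lists, 7 genes could be tested and 1 was called, E2f1 (-2.99), while E2f2 was at -0.073, Mybl1 at -0.61, Rbl1 at -0.45, E2f3 at -0.11, Rb1 at 0.35 and Rbl2 at 0.17. In that setting 3293 of 12869 genes (25.6%) were called.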

How the results depend on the processing

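Where E2f7 and E2f8 passed the filter on low counts, it fixed their calls in every comparison with ATV:4D9 day 1. They are included in the counts by day below, which are therefore informative only for the other genes. All 10 genes were called at day 1 under every alternative except scaling by library size (9, without E2f3), scaling to cells (9, without Rb1) and leaving out cells with a UMI of the S or G2/M lists. The last left 3 genes called at day 1, 1 between day 7 and day 1 and 1 over the 5 groups, with 3 genes not tested. It also reversed E2f3 at day 1 (-0.12) and E2f1 at day 28 (0.14). At day 7, 1 gene, E2f3, was called with library size scaling. The replicate block, a true pairing by batch, also gave 1 at day 7 and changed no other count of the 10 genes by day. Scaling to cells reversed Rb1 between day 7 and day 1 (-0.042), with 8 genes called there and over the 5 groups. Leaving out those cells also moved the day 1 folds by 6.37 times for E2f1, 5.66 for Mybl1, 5.64 for E2f2 and 2.68 for Rbl1, and the folds between day 7 and day 1 by 10.2, 6.19, 6.74 and 2.81 times. The other fold changes by day that moved by over 1.5 times were those of E2f7 and E2f8 given above, E2f8 at day 1 without the 5% of cells with most UMIs (6.28), and E2f7 between day 7 and day 1 in thinned cells (-5.88). Leaving out 1 mouse left 10 genes called at day 1 and 8 to 9 between G2/M-list and S-list cells. These counts include the fixed calls of E2f7 and E2f8 at day 1 and of E2f7 between these classes. Over all genes, 9287 to 9549 were called at day 1 without 1 mouse and 3570 to 10648 under the other alternatives. Between G2/M-list and S-list cells 2652 to 3040 were called without 1 mouse. Among the classes, uncalled values changed sign: Rb1 in S-list against other cells at a limit of 2 UMIs (-0.073), Rbl2 in G2/M-list against S-list cells at that limit (-0.11), and Rbl2 in G2/M-list against other cells at a limit of 5 UMIs (0.052) and unthinned (0.041). Without 1 mouse at a time these ran from -0.044 to 0.074, -0.074 to 0.25 and -0.18 to 0.11, and Rbl2 in S-list against other cells from -0.20 to 0.026. A limit of 5 UMIs moved the S-list rise of E2f7 to 3.29, those of Mybl1, Mybl2 and E2f8 from other to G2/M-list cells to 3.94, 4.29 and 5.62, and those of Mybl2, E2f8 and E2f7 from S-list to G2/M-list cells to 1.66, 2.50 and 2.74. The causes were not tested.

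Mean day 1 shares of cells with a UMI were 34.4% unthinned against 16.5% thinned for E2f1, 10.9% against 4.21% for E2f2, 27.1% against 11.8% for E2f3, 2.57% against 1.06% for E2f7, 5.28% against 2.23% for E2f8, 17.9% against 7.37% for Rb1, 25.7% against 11% for Rbl1, 10.5% against 4.43% for Rbl2, 3.75% against 1.49% for Mybl1 and 3.78% against 1.43% for Mybl2.

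Over all genes, the 568 calls at day 7 were 871 in DESeq2, 1199 with library size scaling, 1014 with the replicate block, 309 with scaling to cells and 331 to 489 without 1 mouse. The 57 at day 14 were 132 in DESeq2, 19 with library size scaling, 0 with scaling to cells, 122 with the replicate block, 0 with only the 2 groups fitted, 35 in thinned cells and 0 to 52 without 1 mouse. The 0 at day 28 were 14 in DESeq2 and 2 with the block. Without cells of the lists the 9872 calls at day 1 were 3570, the 9538 between day 7 and day 1 were 3293 and the 9490 over the 5 groups were 3462. Between classes, 3101, 5238 and 3633 calls (S-list against other, G2/M-list against other, G2/M-list against S-list) were 1223, 3539 and 1851 with no replicate block and 4526, 7336 and 5734 unthinned. The share of higher calls at day 7 was 75% with TMM, 26.4% with library size and 51.8% with scaling to cells.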

Other observations

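Of the 15 targets of B-MYB and FOXM1, limma-voom called 0 at days 7, 14 or 28, DESeq2 called 5, 3 and 1 lower, edgeR 1, 1 and 0, and limma-voom with the replicate block 1, 0 and 0. Over all genes, DESeq2 called 235, 18 and 4 lower at these days, edgeR 169, 4 and 0, and the block 337, 7 and 0. Of these genes, 14 had a negative log2 fold change at day 7 and 15 at days 14 and 28, with medians of -1.45, -1.71 and -1.48, beside a median of -0.0049 over all genes at day 7. The lowest adjusted p-values by limma-voom were 0.117, 0.265 and 1.00. These comparisons share the same 3 control mice, and without replicate 1 of ATV:RSV the negative values numbered 11, 13 and 14, with medians of -1.0, -1.29 and -1.10. Without the 5% of cells with most UMIs they numbered 12, 13 and 13, with medians of -0.99, -1.11 and -0.87. Top2a was at 3.02 ± 1.66 CPM (SD, n = 3) in ATV:RSV and 0.976 ± 0.459 at day 7, and Bub1 at 0.324 ± 0.151 and 0.0689 ± 0.0958. Cells with at least 3 UMIs of the G2/M list numbered 28, 6 and 9 in the ATV:RSV mice, 2, 1 and 6 at day 7, 2, 1 and 3 at day 14, and 9, 3 and 4 at day 28. Because 14 of the 15 targets are genes of that list, these cell counts are not independent of the target values. E2f7, whose UMIs at day 1 lay mostly in such cells, had 11, 0 and 6 UMIs in ATV:RSV and 0 to 3 in each later mouse. Its log2 fold changes at days 7, 14 and 28 were -1.07, -0.97 and -1.13. E2f8, Mybl1 and Mybl2 were also high in such cells at day 1. Their values at these days were -0.45, 0.11 and -0.68 for E2f8, and -0.10, -0.072 and -0.32 for Mybl1. For Mybl2 they were -0.40, -0.80 and -0.0087, and none of these was called. The groups of E2f7 overlapped, and at these low counts no difference was called, which does not show that levels were equal. Of the 26 E2F targets, 17, 19 and 24 had a negative log2 fold change at days 7, 14 and 28, with medians of -0.053, -0.078 and -0.15.

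Cdkn1c, the CDK inhibitor with the lowest log2 fold change at day 1, was at 37.4 ± 2.58 CPM at day 7, 35.9 ± 2.80 at day 14 and 30.4 ± 2.07 at day 28, against 27.9 ± 2.90 in ATV:RSV and 5.68 ± 0.389 at day 1. By limma-voom it was called higher at day 7, a call lost with scaling to cells, and not called at days 14 and 28.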
